A study of Mus musculus with 6 samples.

Results

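The expression of 9 genes of the YAP-TEAD pathway was examined in mouse liver: the co-activators Yap1 and Wwtr1, their DNA-binding partner Tead1, the secreted and cytoskeletal target genes Ccn1, Ccn2 and Ankrd1, and the feedback regulators Ajuba, Amotl2 and Lats2. They were chosen by name, as pathway factors and standard target genes, with earlier results of these data known. All 9 were found among the 55487 genes counted. Of these, 8 passed the filter on low counts, as did 14046 genes in all, and Ankrd1 did not. RNA-seq was performed on whole liver from 3 mice injected subcutaneously with GalNAc-siNC, a control siRNA, and 3 mice injected with GalNAc-siRnf10, an siRNA against the ubiquitin ligase gene Rnf10, with 1 library per mouse. Both siRNAs carry N-acetylgalactosamine (GalNAc), a sugar bound by the asialoglycoprotein receptor of hepatocytes. All 6 mice were male and wild type, ate a normal chow diet, were 17 weeks old when the liver was taken and bore the same batch label. The labels give no dose. The question of the experiment was whether the siRNA affects genes other than its target.

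The Hippo pathway restrains cell growth through a kinase cascade in which MST kinases activate LATS kinases, and LATS kinases phosphorylate YAP and its paralog TAZ (encoded by Wwtr1), which are then held in the cytoplasm or degraded. When the cascade is quiet, YAP and TAZ enter the nucleus, bind TEAD factors and raise transcription of target genes such as Ccn1 and Ccn2, which encode matricellular proteins. Several targets, among them Lats2 and Amotl2, restrain YAP in turn and so form a feedback loop. In liver the pathway is known for the control of organ size, and Ccn2 (connective tissue growth factor) is known for its rise in fibrosis.

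TEAD factors bind the sequence GGAATG, and its copies in promoter windows of the members are shown here. The members were grouped by name and not by this sequence. Promoter windows from RefSeq (GRCm38.p6), running from 250 bases before to 50 bases after an annotated start, were found for 7 of the 9 members, in 9 windows. Ccn2 and Tead1 had no entry. At least 1 copy of the core, on either strand, lay in a window of all 7 members and in 8 of the 9 windows. Over all windows, 4817 of 32851 (14.7%) held it, and by gene 4481 of 27025 (16.6%). Such a match describes the letters and is not evidence of binding. Each site is printed with 12 bases on each side in the direction of the gene, with the core in capitals. CATTCC is the same core on the opposite strand.
Yap1, chr9:8004720-8004749, minus strand: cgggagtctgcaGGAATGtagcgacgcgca
Wwtr1, chr3:57576029-57576058, minus strand: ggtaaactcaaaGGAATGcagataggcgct
Ccn1, chr3:145650071-145650100, minus strand: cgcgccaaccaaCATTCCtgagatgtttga
Ankrd1 distal, chr19:36120037-36120066, minus strand: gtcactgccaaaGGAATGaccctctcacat
Ankrd1 proximal, chr19:36119950-36119979, minus strand: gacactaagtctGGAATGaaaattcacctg
Ajuba distal, chr14:54577830-54577859, minus strand: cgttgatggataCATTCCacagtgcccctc
Ajuba proximal, chr14:54577808-54577837, minus strand: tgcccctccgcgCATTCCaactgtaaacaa
Amotl2, chr9:102717727-102717756, plus strand: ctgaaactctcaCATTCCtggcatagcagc

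The core began 141 bases before the start of Yap1, 103 before that of Ccn1 and 65 before that of Amotl2. Wwtr1 had a single copy that lay 136 or 170 bases before its annotated starts, depending on which start is counted from. Ajuba had a copy 186 and another 164 bases before its RefSeq start, and Ankrd1 a copy 210 and another 123 bases before. The whole window of Ajuba, chr14:54577612-54577911, lay upstream of the gene as deposited, which spans chr14:54567472-54577558. Its distances are thus counted from a start outside that gene model. In Lats2 the core was found only just inside the transcript, 4 bases after the first base of the upstream RefSeq start. The gene as deposited runs to chr14:57758388, so that both windows of Lats2 lay inside that gene model. In GENCODE M21, 2 of its 9 transcripts overlapped the bases before the upstream start and 6 those before the downstream start, with no exon there. By GENCODE M21 the sites of Yap1, Wwtr1, Ccn1 and Ajuba overlapped no exon of their gene. That of Amotl2 lay within an untranslated exon of 2 of its 14 transcripts, and both of Ankrd1 within one of 1 of its 6 transcripts, so that longer annotated transcripts begin upstream of these starts. The core of the factor AP-1 (TGANTCA, either strand), which often works beside TEAD, was in 7.81% of all windows and in none of the 7 members. The CArG box of serum response factor, another regulator of Ccn1 and Ccn2, was in 1.63% of all windows and in none of the 7.

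The 250 bases before the RefSeq start are printed for Ajuba, which carries a pair of cores, and for Ccn1, which carries 1 core. Ajuba was called lower and Ccn1 was not called. Amotl2, which also carries 1 core, was called lower, and any link between cores and counts was not tested. The cores are in capitals.
Ajuba, chr14:54577662-54577911, minus strand: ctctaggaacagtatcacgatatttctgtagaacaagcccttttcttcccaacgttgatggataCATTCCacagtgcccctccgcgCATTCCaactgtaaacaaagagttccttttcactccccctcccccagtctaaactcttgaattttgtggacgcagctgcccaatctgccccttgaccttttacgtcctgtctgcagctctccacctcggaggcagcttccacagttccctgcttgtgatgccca
Ccn1, chr3:145649986-145650235, minus strand: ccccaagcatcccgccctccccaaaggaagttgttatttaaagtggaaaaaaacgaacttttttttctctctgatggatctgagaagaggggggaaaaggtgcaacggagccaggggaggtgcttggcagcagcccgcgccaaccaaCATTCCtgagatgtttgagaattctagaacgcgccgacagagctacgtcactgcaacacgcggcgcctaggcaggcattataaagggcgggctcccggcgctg

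**Figure D1:**
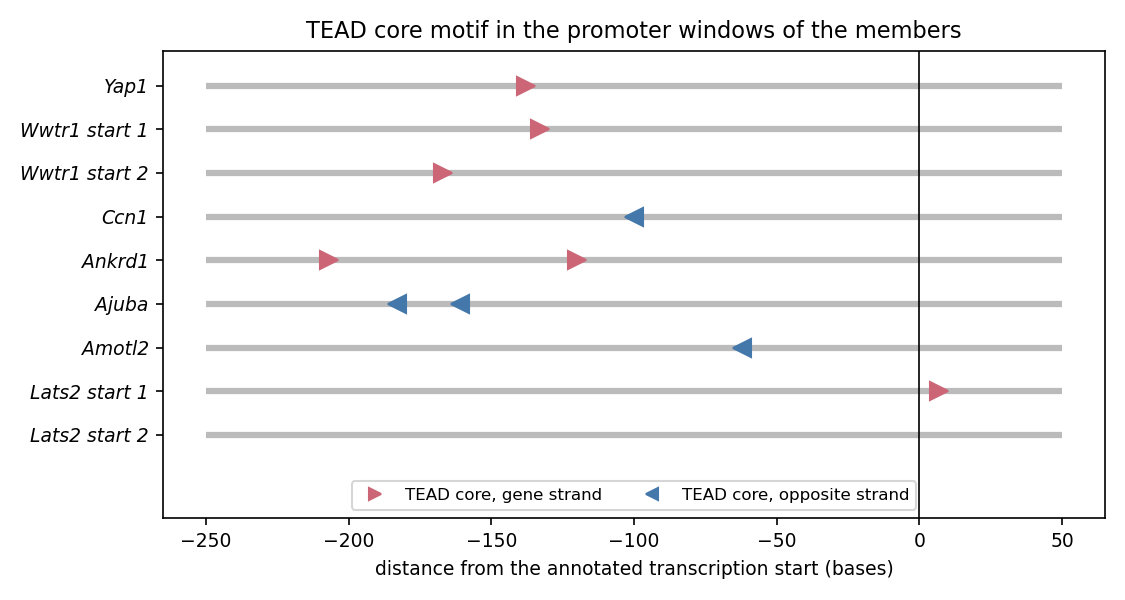
Position of the TEAD core in the 9 promoter windows of 7 members, in bases from the annotated transcription start (x axis, vertical line at the start). Arrowheads pointing right are cores on the gene's strand and those pointing left are on the opposite strand; the cores before a start sit between 65 and 210 bases from it, and the downstream window of Lats2 holds none.

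The targeted gene checked the labels. Rnf10 had normalized counts of 3869, 4536 and 4040 with GalNAc-siNC and 1738, 1820 and 1793 with GalNAc-siRnf10, 57% lower (adjusted p = 3.29e-09 by edgeR for a log2 fold change of -1.22 ± 0.0715, standard error). Normalized counts are the deposited counts scaled to a common library size. Library totals ranged from 26854377 to 33058645 counts, so that 3 counts were at most 1.12e-05% of a library, a limit that covers counting error only. Adjusted p-values throughout are Benjamini-Hochberg values over all 14046 tested genes from edgeR's quasi-likelihood test, and a gene was called at a value under 0.05. Nothing in the labels beyond the mouse number says how the mice relate, so that p-values measure the spread between these 6 mice.

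Among the 8 tested members, 1 was higher (Ccn2) and 2 were lower (Ajuba and Amotl2) in GalNAc-siRnf10-treated mice, and 5 were not called. Of all tested genes, 1965 (14.0%) were called, 943 higher (6.71%) and 1022 lower (7.28%). This number fell to 1053, 1128 and 1128 without GalNAc-siRnf10-treated mouse 1, 2 and 3. It rose to 2864 without GalNAc-siNC-treated mouse 1. The share of 3 in 8 members rests on 3 genes and is given as a description beside that background. Since the members were chosen with earlier results known, such comparisons are not independent of these data. The groups did not overlap in 4 of the 8 members (Ccn2, Tead1, Ajuba and Amotl2), against 32.8% of all tested genes. For each of these 4 the exact two-sided permutation test gave p = 0.1, the smallest value that 3 mice against 3 allow. The median log2 fold change of the 8 members was -0.14, with 2 values above 0 and 6 below, beside 0.0022 for all tested genes. The called members thus lay on both sides of 0, with the target genes Ccn2 higher and Ajuba and Amotl2 lower.

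**Figure D2:**
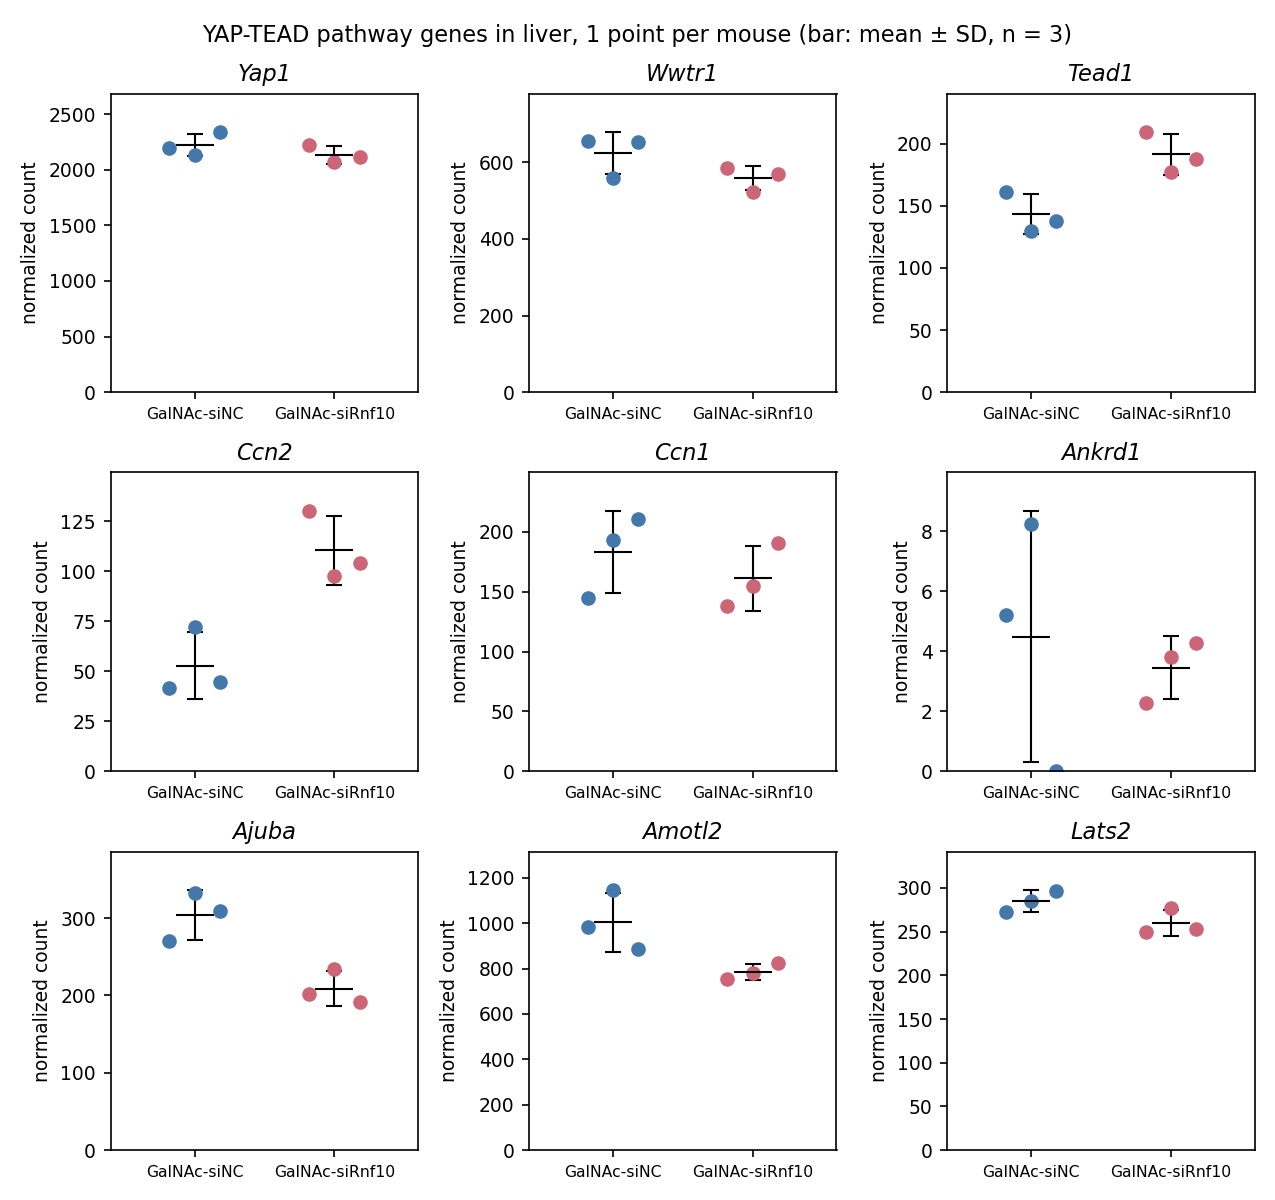
Normalized count of each of the 9 members (y axes from 0) in each mouse, with the mean and SD of 3 mice per group. Ccn2 sits between 41.8 and 72.2 with GalNAc-siNC and between 97.5 and 130 with GalNAc-siRnf10, while Ajuba and Amotl2 are lower in all 3 GalNAc-siRnf10-treated mice and Yap1 and Ccn1 overlap.

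Yap1 (ENSMUSG00000053110, chr9:7931999-8004596, minus strand) encodes the main co-activator of the pathway. Its normalized counts were 2194, 2137 and 2336 with GalNAc-siNC and 2227, 2068 and 2116 with GalNAc-siRnf10. The groups overlapped, with means of 2222 ± 102 and 2137 ± 81.3 (SD, n = 3 mice each). The log2 fold change was -0.057, with a 95% interval from -0.20 to 0.087 (adjusted p = 0.649, edgeR), so that at this depth a change of the Yap1 transcript beyond this interval was not seen. Activity of YAP is set mainly by phosphorylation and location of the protein, which transcript counts do not measure.

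Wwtr1 (ENSMUSG00000027803, chr3:57455649-57575910, minus strand), which encodes TAZ, had counts of 656, 560 and 653 with GalNAc-siNC and 585, 523 and 568 with GalNAc-siRnf10. These groups overlapped too, through the low GalNAc-siNC-treated mouse 2. The log2 fold change was -0.16 (95% interval -0.36 to 0.046, adjusted p = 0.319, edgeR). Per length, the level of Wwtr1 was 0.543 ± 0.036 of that of Yap1 with GalNAc-siNC and 0.506 ± 0.0151 with GalNAc-siRnf10 (SD, n = 3 mice each).

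Tead1 (ENSMUSG00000055320, chr7:112679318-112906807, plus strand) encodes a TEAD factor, which binds DNA and recruits YAP or TAZ. It had counts of 161, 130 and 138 with GalNAc-siNC and 209, 177 and 188 with GalNAc-siRnf10. All 3 GalNAc-siRnf10-treated mice were above all 3 GalNAc-siNC-treated mice. The log2 fold change of 0.41 (standard error 0.146, 95% interval 0.11 to 0.72) had an unadjusted p of 0.0113 and an adjusted p of 0.07 (edgeR), and Tead1 was not called. It was called only when GalNAc-siNC-treated mouse 1, the highest of its group, was left out (log2 fold change 0.51, adjusted p = 0.0205, edgeR).

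Of the other TEAD genes, Tead3 was lower in GalNAc-siRnf10-treated mice, from 338 ± 49.8 to 241 ± 14 normalized counts (SD, n = 3 mice each), a log2 fold change of -0.48 ± 0.128 (standard error) and an adjusted p of 0.0175 (edgeR). This call was lost without GalNAc-siNC-treated mouse 2 and without GalNAc-siRnf10-treated mouse 1 or 2, with an adjusted p of up to 0.0956. Tead2 was low, at 9.74 ± 2.71 and 14.7 ± 4.97 normalized counts (log2 fold change 0.62, adjusted p = 0.445, edgeR), and Tead4 had at most 4 counts in a library and was not tested. Per length, the level of Tead1 was 0.277, 0.166 and 0.203 of that of Tead3 with GalNAc-siNC and 0.43, 0.385 and 0.365 with GalNAc-siRnf10. The groups did not overlap in this ratio, whose pair was chosen after its values were seen and which is given with no test.

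Ccn2 (ENSMUSG00000019997, chr10:24595442-24598683, plus strand), which encodes a secreted matricellular protein and is the target most often used as a readout of YAP, was the only member called higher. Its normalized counts were 41.8, 72.2 and 44.5 with GalNAc-siNC and 130, 97.5 and 104 with GalNAc-siRnf10. Every GalNAc-siRnf10-treated mouse was above every GalNAc-siNC-treated mouse, and the nearest were GalNAc-siNC-treated mouse 2 and GalNAc-siRnf10-treated mouse 2. The mean rose from 52.8 ± 16.8 to 111 ± 17.1 (SD, n = 3 mice each), which was 2.1-fold (95% interval 1.5 to 2.95), with a log2 fold change of 1.07 ± 0.232 (standard error) and an adjusted p of 0.00436 (edgeR). In raw counts these were 48, 70 and 45 against 115, 102 and 98, so that the values rest on few reads per library. The call was kept in each of the 6 leave-one-out fits, with a log2 fold change between 0.92 and 1.35 and an adjusted p of at most 0.0397. The antisense gene Gm15270 shares 665 bases (23.2%) of the exons of Ccn2, and it had at most 2 counts in a library. Since the strand setting and the handling of reads in shared exons are not known, the effect of this overlap was not tested.

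Ccn1 (ENSMUSG00000028195, chr3:145646976-145649981, minus strand), the close relative of Ccn2 and also a secreted target of YAP, was not called. Its normalized counts were 145, 193 and 211 with GalNAc-siNC and 138, 155 and 191 with GalNAc-siRnf10. The groups overlapped across most of their range. The log2 fold change was -0.18 (95% interval -0.54 to 0.17, adjusted p = 0.543, edgeR), an interval whose upper end lay below the lower end of 0.58 for Ccn2. Without 1 mouse at a time it ranged from -0.33 to -0.068 and was never called. Per length, the level of Ccn2 was 0.203, 0.264 and 0.148 of that of Ccn1 with GalNAc-siNC and 0.665, 0.444 and 0.386 with GalNAc-siRnf10. In every mouse Ccn1 thus remained the more abundant transcript of this pair, which was chosen after its values were seen and is given with no test.

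Ankrd1 (ENSMUSG00000024803, chr19:36111961-36120099, minus strand) encodes a nuclear ankyrin repeat protein that is most abundant in striated muscle and is a strong YAP target in many cultured cells. In these livers it had 6, 8 and 0 raw counts with GalNAc-siNC and 2, 4 and 4 with GalNAc-siRnf10, and was not tested. With no filter its log2 fold change was -0.36 (adjusted p = 0.897, edgeR). A difference was not detectable at this depth.

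Other members of the CCN family were scarce. Ccn4 had 15 ± 6.76 and 20.2 ± 7.63 normalized counts (log2 fold change 0.40, adjusted p = 0.621, edgeR) and Ccn6 7.26 ± 4.59 and 10 ± 5.42 (0.47, adjusted p = 0.686). Ccn3 and Ccn5 had at most 12 counts in a library and were not tested.

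Ajuba (ENSMUSG00000022178, chr14:54567472-54577558, minus strand) encodes a LIM domain protein that binds LATS kinases and keeps them from YAP. Its normalized counts were 270, 333 and 309 with GalNAc-siNC and 202, 234 and 191 with GalNAc-siRnf10. All 3 GalNAc-siRnf10-treated mice lay below the lowest GalNAc-siNC-treated mouse. The mean was 304 ± 32 against 209 ± 22.6 (SD, n = 3 mice each), 31% lower, with a log2 fold change of -0.54 ± 0.13 (standard error; 95% interval -0.81 to -0.26, adjusted p = 0.01, edgeR). Its call was lost without GalNAc-siRnf10-treated mouse 1 (-0.51, adjusted p = 0.0589) and without GalNAc-siRnf10-treated mouse 3 (-0.47, adjusted p = 0.0718).

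Amotl2 (ENSMUSG00000032531, chr9:102716672-102733418, plus strand) encodes an angiomotin, a junction protein that holds YAP outside the nucleus. It had 983, 1144 and 884 normalized counts with GalNAc-siNC and 755, 780 and 823 with GalNAc-siRnf10. The groups did not overlap, and the GalNAc-siNC-treated mice spread more widely. Its mean was 1004 ± 131 against 786 ± 34.5 (SD, n = 3 mice each), 21.6% lower, with a log2 fold change of -0.35 ± 0.0948 (standard error; 95% interval -0.55 to -0.15, adjusted p = 0.0189, edgeR). Without GalNAc-siNC-treated mouse 2 the log2 fold change was -0.25 (adjusted p = 0.0808, edgeR), and the call was also lost without any one of the GalNAc-siRnf10-treated mice (adjusted p of 0.109, 0.0844 and 0.0542 without mouse 1, 2 and 3).

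Lats2 (ENSMUSG00000021959, chr14:57689662-57758388, minus strand) encodes a kinase that phosphorylates YAP and is itself raised by YAP. Its normalized counts of 272, 285 and 297 with GalNAc-siNC overlapped those of 250, 277 and 253 with GalNAc-siRnf10. The log2 fold change was -0.13 (95% interval -0.37 to 0.11, adjusted p = 0.524, edgeR). The gene Gm49361, on the same strand, shares 2955 bases (42.4%) of its exons and had 0 counts in every library. How reads in shared exons were assigned is not given in the sources used here. If they were left out, the counts of Lats2 come from only part of its exons, which was not tested.

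**Figure D3:**
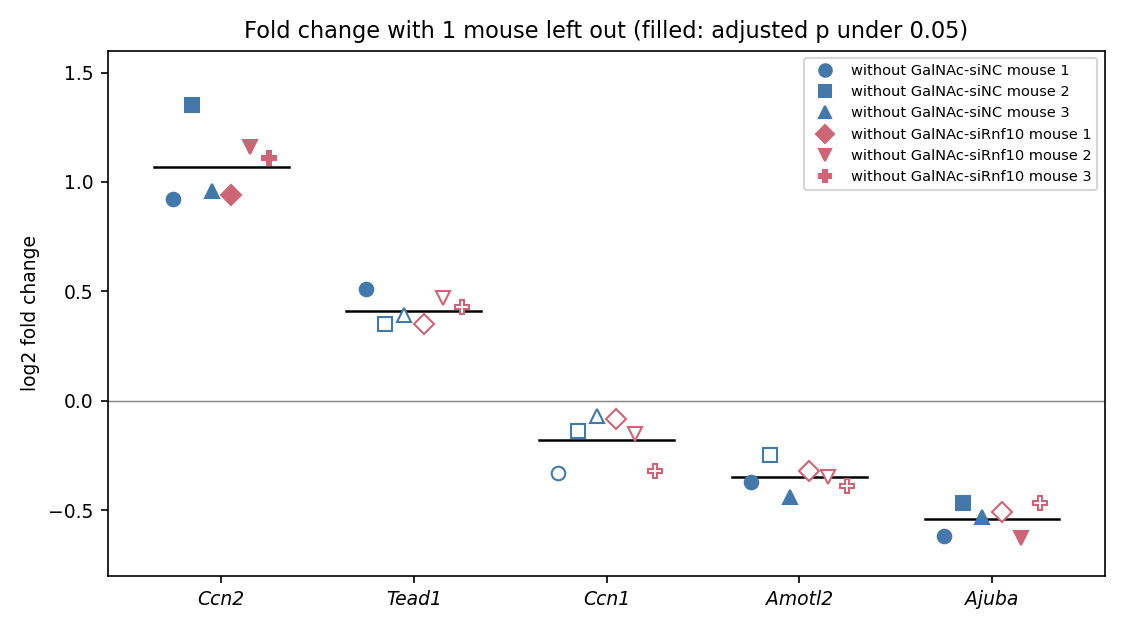
Log2 fold change (y axis, GalNAc-siRnf10 against GalNAc-siNC) of 5 members with each mouse left out in turn, beside the value from all 6 mice (black line). Filled symbols had an adjusted p under 0.05 by edgeR: all 6 for Ccn2, 4 for Ajuba, 2 for Amotl2, 1 for Tead1 and none for Ccn1.

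Levels between genes were compared as CPM (a count scaled to a fixed library total) per kilobase of gene length. In GalNAc-siNC-treated mice the order was Yap1 (8.09 ± 0.373), Amotl2 (5.38 ± 0.702), Wwtr1 (4.4 ± 0.386), Ccn1 (3.06 ± 0.569), Ajuba (2.81 ± 0.295), Lats2 (1.38 ± 0.0603), Ccn2 (0.622 ± 0.198), Tead1 (0.355 ± 0.04) and Ankrd1 (0.0525 ± 0.0487; SD, n = 3 mice each). The co-activator Yap1 was thus more abundant per length than each of its targets listed here. Among neighbours in this order, only Ccn1 and Ajuba overlapped. With GalNAc-siRnf10, Ccn2 (1.3 ± 0.202) and Lats2 (1.26 ± 0.0722) changed places, although their ranges overlapped. Of the exon bases of Lats2, 42.4% are shared with Gm49361, and how reads there were assigned is not known. If they were left out, the level of Lats2 per full length is too low. Its place in the order with GalNAc-siRnf10 is thus uncertain. Amotl2 (4.21 ± 0.185) and Wwtr1 (3.94 ± 0.227) overlapped as well, and Ccn1 (2.69 ± 0.449) stood clear of Ajuba (1.93 ± 0.209).

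**Figure D4:**
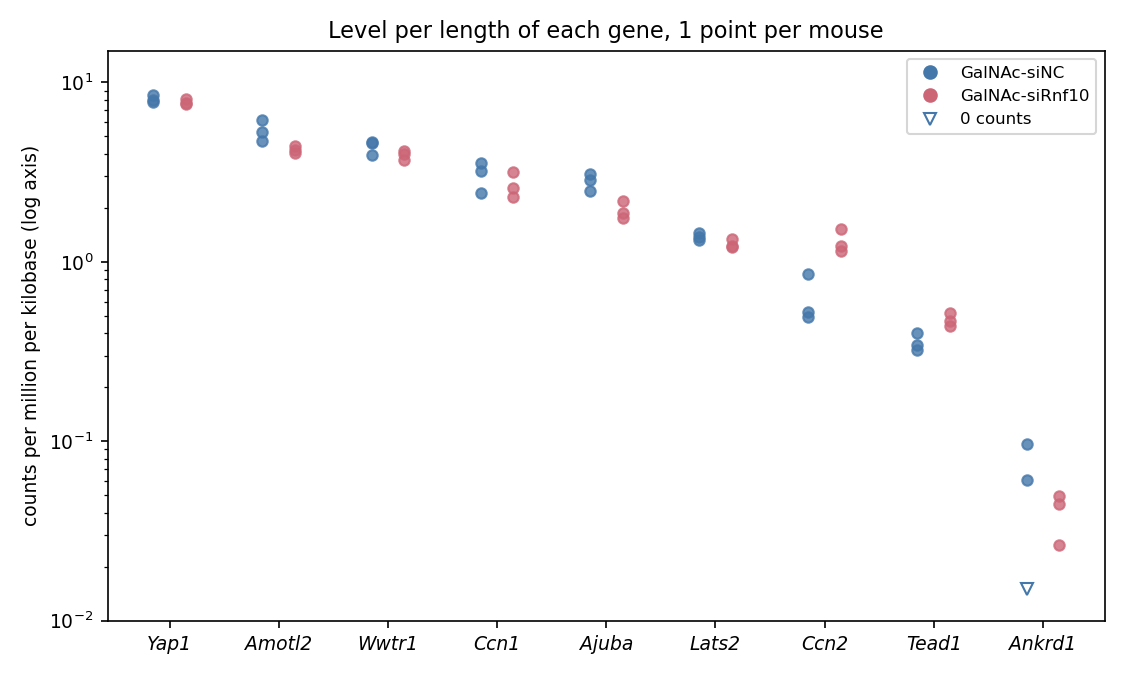
Level of each member as CPM per kilobase (log y axis), 1 point per mouse, ordered by the mean of GalNAc-siNC-treated mice; the open triangle is the mouse with 0 counts of Ankrd1. The point clouds of Ccn2 move from below those of Lats2 with GalNAc-siNC to beside them with GalNAc-siRnf10. Levels are per full gene length, and 42.4% of the exon bases of Lats2 are shared with Gm49361.

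Of 16 kinases and upstream regulators of the Hippo pathway, all tested, 1 was lower and none was higher, beside 14.0% called of all tested genes, and the log2 fold changes ran from -0.41 to 0.13, with 13 of 16 below 0 and a median of -0.16. The lower gene was Taok3, a kinase that acts upstream of MST and LATS, at 2017 ± 84.7 against 1681 ± 87.6 normalized counts (SD, n = 3 mice each; log2 fold change -0.26, standard error 0.0707, adjusted p = 0.0186, edgeR). Its call was lost without GalNAc-siRnf10-treated mouse 1 or 3. The core kinases Stk3 (-0.095), Stk4 (0.027) and Lats1 (-0.18), and the scaffold Sav1 (-0.19), had adjusted p-values between 0.245 and 0.899 (edgeR). These 4 genes are named for their central role, after their values were seen.

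Of 5 partner genes of the pathway, 2 were higher and none was lower, beside 14.0% called of all tested genes. Vgll4, a cofactor that competes with YAP for TEAD, rose from 597 ± 24.5 to 802 ± 62.3 normalized counts (SD, n = 3 mice each; log2 fold change 0.43, standard error 0.0896, adjusted p = 0.00342, edgeR) and was called in all 6 leave-one-out fits. Amotl1, a paralog of Amotl2, rose from 77.3 ± 18.4 to 131 ± 5.46 (0.75, standard error 0.192, adjusted p = 0.0137), a call that was lost without GalNAc-siNC-treated mouse 2 or GalNAc-siRnf10-treated mouse 3. The angiomotin genes thus differed in sign, since Amotl2 fell and Amot was at -0.25 (adjusted p = 0.188, edgeR). Limd1 and Wtip, LIM proteins related to Ajuba, had log2 fold changes of 0.078 and -0.35 (adjusted p = 0.529 and 0.568, edgeR).

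Taking the kinases, partners and other TEAD genes together, 4 of 23 tested genes were called, a share near the 14.0% of all tested genes, and this number was 2 without GalNAc-siRnf10-treated mouse 1 and 2 without GalNAc-siRnf10-treated mouse 3. Their median log2 fold change was -0.14, as it was for the members.

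A further list of 17 YAP-TEAD target genes, of which 15 were tested, also had calls in both directions. In it 2 were higher, 3 were lower and 10 were not called, beside 14.0% called of all tested genes. The median log2 fold change of this list, also chosen with earlier results known, was 0.042. Many of these genes also answer to signals other than YAP. Igfbp3, which encodes a binding protein of insulin-like growth factors, rose from 146 ± 29 to 295 ± 28.4 normalized counts (SD, n = 3 mice each; log2 fold change 1.01, standard error 0.15, adjusted p = 0.000171, edgeR). Crim1, a transmembrane protein that binds bone morphogenetic proteins, was higher by 0.33 on the log2 scale (adjusted p = 0.0496), a call lost in 5 of the 6 leave-one-out fits and under each other setting tried.

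Of the genes that fell, Nuak2 encodes a kinase related to AMPK. Its counts went from 542 ± 44.1 to 269 ± 26.6 (SD, n = 3 mice each; log2 fold change -1.01, standard error 0.113, adjusted p = 7.51e-06, edgeR). Gadd45a, a stress response gene, was at 128 ± 7.9 and 61.3 ± 0.385 (-1.06, adjusted p = 0.00049), and F3, the gene of tissue factor, at 210 ± 22.7 and 115 ± 15.4 (-0.87, adjusted p = 0.000849). These 3 and Igfbp3 kept their calls whichever mouse was left out. The largest differences among target genes, that of Ccn2 included, thus had opposite signs at similar size. Fjx1 and Foxf2 had at most 4 counts in a library and were not tested.

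**Figure D5:**
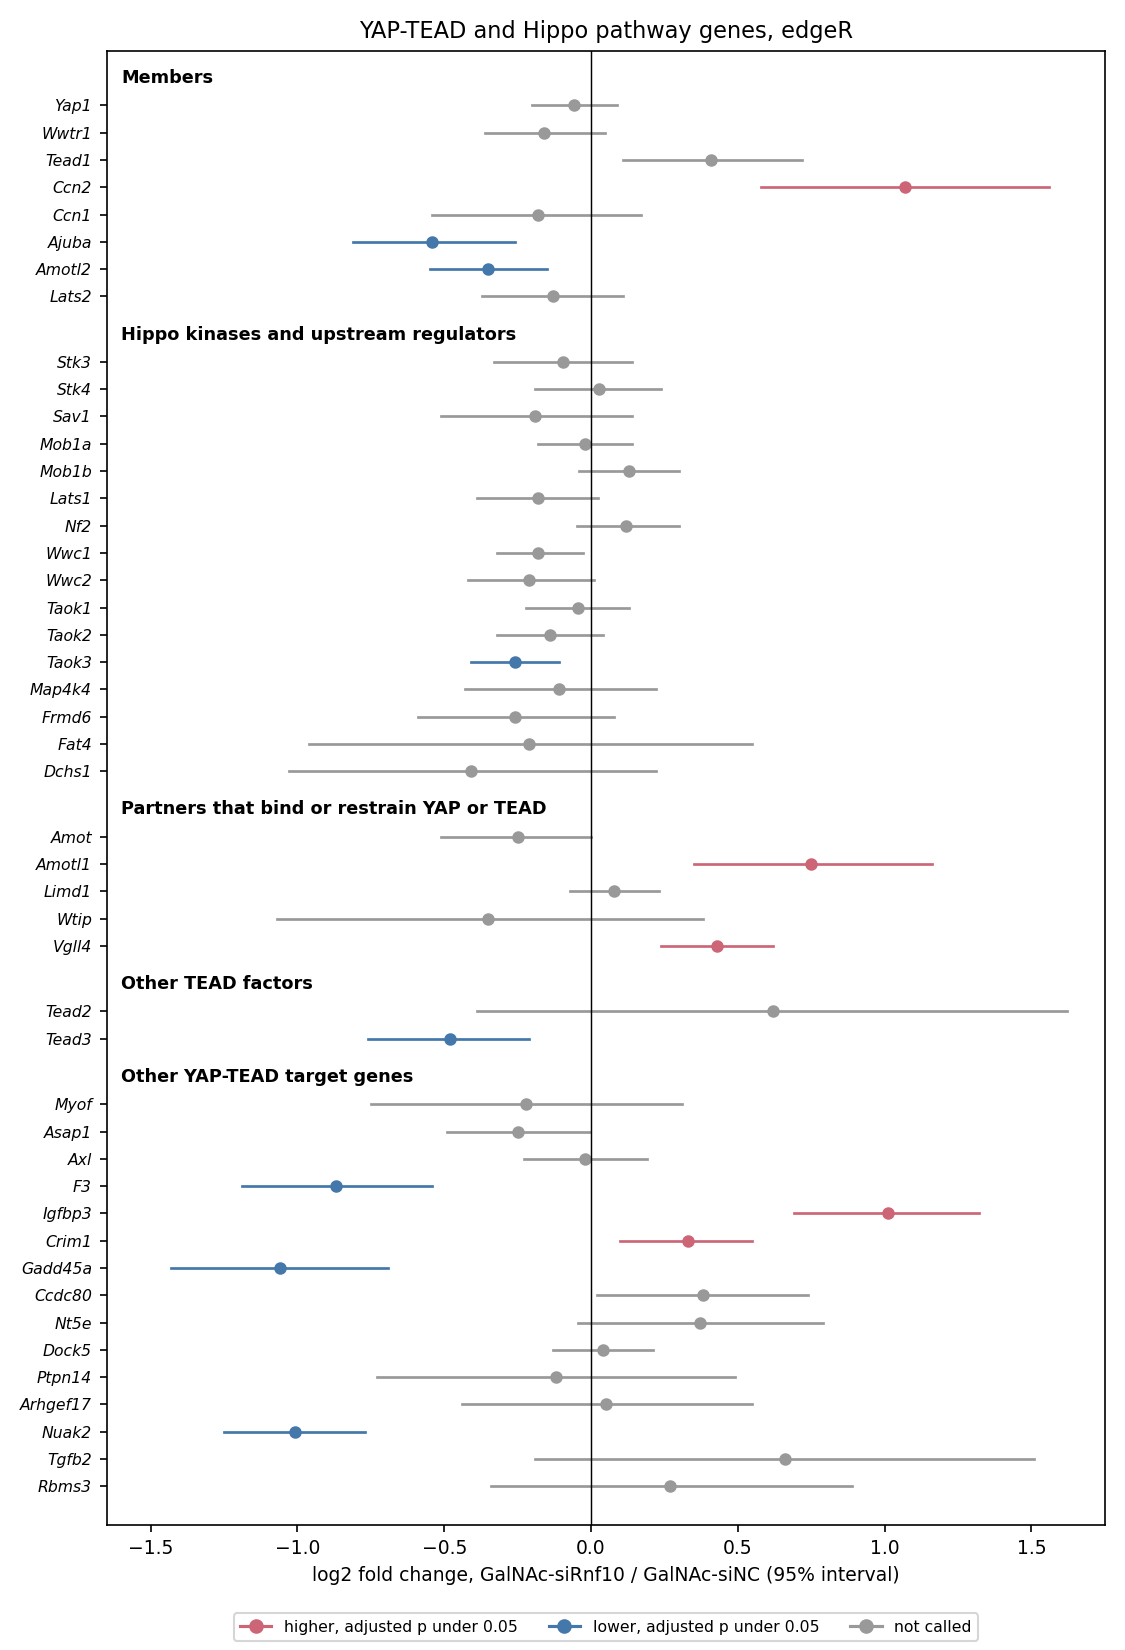
Log2 fold change (x axis, with 95% interval) of each tested member and of the other tested Hippo and YAP-TEAD genes, colored by whether edgeR's adjusted p was under 0.05. Most kinases sit close to 0, and the target genes at the bottom spread from -1.06 (Gadd45a) to 1.01 (Igfbp3) on both sides of it.

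Other regulators share targets with YAP. Of 10 targets of serum response factor, which controls actin genes and also acts on Ccn1 and Ccn2, 7 were tested, all with log2 fold changes below 0, and 2 were lower. These were the cytoplasmic actins Actg1 (-0.45, standard error 0.0854, adjusted p = 0.00148, edgeR) and Actb (-0.23, standard error 0.0536, adjusted p = 0.00875, edgeR, lost without GalNAc-siRnf10-treated mouse 1 or 2). The other 5 tested genes of the list were not called, and of all tested genes 14.0% were called.

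Of 9 immediate early genes, which respond within minutes to stress and growth signals, 8 were tested. Of these, 2 were higher and 2 lower, beside 14.0% called of all tested genes. Jun, a subunit of AP-1, rose from 241 ± 42.1 to 374 ± 6.7 normalized counts (SD, n = 3 mice each; log2 fold change 0.64, adjusted p = 0.00273, edgeR), and Zfp36, whose protein destabilizes mRNAs, was higher by 0.33 (adjusted p = 0.00644, lost without GalNAc-siRnf10-treated mouse 3). Fos (log2 fold change -1.62, adjusted p = 0.0478, edgeR) and Junb (-0.87, adjusted p = 0.0461) were lower, and these calls were lost in 4 and 5 of the 6 leave-one-out fits. Fos rests on few reads, with 20, 29 and 18 raw counts with GalNAc-siNC and 6, 12 and 2 with GalNAc-siRnf10. AP-1 subunits thus stood on both sides of 0.

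TGF-beta is the best known inducer of Ccn2. Of 12 genes of its ligands, receptors and targets, all tested, 1 was lower and none was higher, beside 14.0% called of all tested genes. The median log2 fold change of the 12 was -0.098. Smad7, which TGF-beta induces and which inhibits its pathway, fell from 322 ± 41.6 to 206 ± 23.7 normalized counts (SD, n = 3 mice each; log2 fold change -0.64, standard error 0.134, adjusted p = 0.00335, edgeR) and kept its call whichever mouse was left out.

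Since whole liver was sequenced, fewer cells of a type and less RNA per cell cannot be told apart, and markers of the cell types that could hold these transcripts were read in the same fit. Calls in these short lists stand beside the 14.0% called of all tested genes. Hepatocyte markers showed the tissue to be liver, with a summed level from 48200 to 51200 CPM with GalNAc-siNC and from 72600 to 75300 with GalNAc-siRnf10. Of these 5, Alb (log2 fold change 0.64, adjusted p = 1.40e-07, edgeR) and Ttr (0.66, adjusted p = 0.0138, lost without GalNAc-siNC-treated mouse 2) were higher, and Apoa1 (0.084), Asgr1 (0.11), which encodes a subunit of the receptor that binds GalNAc, and Hnf4a (0.081) were not called.

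Among 5 stellate cell markers, Reln (0.35, adjusted p = 0.0158, edgeR) and Colec11 (0.37, adjusted p = 0.0422) were higher, while Lrat (-0.27), Pdgfrb (-0.25) and Des (-0.20) were not called. Their summed level was between 39.1 and 40.3 CPM with GalNAc-siNC and between 43.3 and 46.2 with GalNAc-siRnf10. Of 5 markers of sinusoidal endothelium, Clec4g (0.52, adjusted p = 0.00426, edgeR) and Lyve1 (0.55, adjusted p = 0.0414) were higher, and Stab2 (-0.26), Pecam1 (0.058) and Kdr (0.16) were not called. Their sum ran from 56.6 to 56.8 CPM with GalNAc-siNC and from 58.7 to 62.2 with GalNAc-siRnf10. The calls of Colec11 and Lyve1 were lost in 4 and 5 of these fits, and that of Reln without GalNAc-siRnf10-treated mouse 1 or 2.

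Both sums were higher in every GalNAc-siRnf10-treated mouse, as Ccn2 was. In the stellate cell list, only Reln (490 to 627 normalized counts) and Colec11 (281 to 363) had higher means, and in the endothelial list the largest increase in the mean was that of Clec4g (282 to 405) while that of Stab2 was lower (711 to 594). The part of either cell type in the result for Ccn2 was not tested. Relative to Reln, the highest of the stellate cell markers in counts, the level of Ccn2 per length was 0.691, 1.27 and 0.741 with GalNAc-siNC and 1.62, 1.31 and 1.45 with GalNAc-siRnf10. Relative to Clec4g it was 0.135, 0.216 and 0.131 against 0.249, 0.219 and 0.234, and relative to Kdr 0.303, 0.565 and 0.352 against 0.842, 0.698 and 0.721. The groups did not overlap in any of these 3 ratios, though GalNAc-siNC-treated mouse 2 came close in those to Reln and Clec4g. The ratios were chosen after values were seen and are given with no test. All 3 markers in them had higher means with GalNAc-siRnf10. No ratio was taken to the markers with lower means, which were Lrat, Pdgfrb, Des and Stab2, the highest endothelial marker in counts.

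Cholangiocytes, in which YAP is abundant, have markers that were lower in sum, from between 68.5 and 69.9 CPM with GalNAc-siNC to between 37.8 and 38.9 with GalNAc-siRnf10. Of these 5 genes, Spp1 was lower (-0.90, adjusted p = 8.59e-08, edgeR) and makes up most of the sum, while Sox9 (-0.54, adjusted p = 0.0555), Krt19 (-0.20), Krt7 (-0.26) and Epcam (-0.15) were not called. Spp1 is also expressed outside this cell type, and the part of cholangiocytes in the lower counts of Ajuba and Amotl2 was not tested.

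None of the 5 Kupffer cell markers was called, with log2 fold changes of 0.11 for Clec4f, -0.05 for Adgre1, -0.17 for Cd5l, 0.19 for Vsig4 and 0.31 for Timd4, and sums of 139 to 161 and 150 to 156 CPM. None of 4 mesothelial markers was called either, with 0.20 for Msln, 0.24 for Upk3b, -0.53 for Wt1 and -0.56 for Lrrn4, and sums of 6.46 to 6.98 and 6.1 to 8.31 CPM. The striated muscle markers Acta1, Ckm, Tnnt3, Myl2 and Myh7 had at most 2 counts in a library.

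The genes whose log2 level over the 6 libraries was most like that of Ccn2, among 10944 whose normalized count averaged at least 50, were Zfp263 (Pearson r of 0.9877), Gm10443 (0.9863), Umps (0.9847), Cln8 (0.9839) and Klhl25 (0.9832). Of these 5, Cln8 (log2 fold change 0.32, adjusted p = 0.0123, edgeR) and Klhl25 (0.55, adjusted p = 0.00207) were called higher, and Zfp263 (0.16), Gm10443 (0.62) and Umps (0.16) were not. No other gene of the YAP-TEAD lists was among them. With 6 libraries in 2 groups such correlations share the difference between groups, and they are given as a description.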

How the data were processed

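Liver RNA of 6 mice was measured by stranded, poly(A)-selected, paired-end RNA-seq. The authors mapped reads to GRCm38 (mm10) with HISAT2 and deposited raw counts per Ensembl gene, with gene lengths and coordinates. The counter, annotation release and strand setting are not given in the sources used here. Among deposited counts from 1 to 10, between 63.5% and 65.4% were even, so that read mates may have been counted separately; halving the counts was therefore tried.

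Groups were taken from the labels. The members and gene lists were chosen with earlier results of these data known. All genes were fitted in R 4.3.3 with edgeR 4.0.16 (filterByExpr, TMM, robust quasi-likelihood F-test, treatment as the only term, Benjamini-Hochberg adjusted p under 0.05); the biological coefficient of variation was 9.28%. Standard errors were the log2 fold change divided by the square root of F. Single members were also compared by an exact two-sided permutation test (scipy 1.17.1). Alternatives were RLE and upper-quartile factors, no filter, at least 10 counts in every library, DESeq2 1.42.0, limma 3.58.1 voom, the mouse number as a block, and leaving out each mouse. The steps were tested on simulated data. Same-numbered mice are different animals, and their deviations from group means correlated between -0.0337 and 0.0272, so numbers were not taken as pairs. Mice of a group differed by more than sampling noise (chi-square per gene of 4.45 to 27.8, with the 2 pairs that hold GalNAc-siNC-treated mouse 1 at 27.1 and 27.8).

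Named genes were the members, Rnf10, in each list every called gene (at most 6 by size of change, all of a list of up to 5), and the 5 genes most like Ccn2. Stk3, Stk4, Lats1, Sav1, Fjx1 and Foxf2 were named outside this rule, after their values were seen. Overlaps between genes were read from the deposited exon coordinates, exons at the motif sites from GENCODE M21, and promoter windows from RefSeq. Cores were searched on both strands. Figures were drawn with matplotlib 3.10.9.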

Additional observations from a re-analysis of the deposited data

How the results depend on the processing

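The number of called genes was 1965 and ranged from 1053 to 2864 when 1 mouse was left out, with the fewest, 1053, 1128 and 1128, without GalNAc-siRnf10-treated mouse 1, 2 and 3. The most, 2864, were called without GalNAc-siNC-treated mouse 1. Under the 8 other settings it ranged from 1816 (replicate block) to 2324 (no filter), with 1912 by DESeq2 and 1888 by limma voom. Leaving out 1 mouse gave log2 fold changes from 0.92 to 1.35 for Ccn2, from -0.63 to -0.47 for Ajuba, from -0.44 to -0.25 for Amotl2, from 0.35 to 0.51 for Tead1, from -0.33 to -0.068 for Ccn1, from -0.18 to -0.10 for Lats2, from -0.087 to -0.023 for Yap1 and from -0.23 to -0.11 for Wwtr1, and no member changed sign. The calls that this removed or added are those given beside Ajuba, Amotl2 and Tead1, and the cause was not tested. Under the 8 other settings, which include counts halved (added after seeing the data), every member's call or lack of one was as reported, with Ccn2 between 1.06 and 1.10 and Tead1 at an adjusted p of 0.0655 to 0.0946. The number of called kinases, partners and TEAD genes was 4 and ranged from 2 to 5 without 1 mouse; that of other YAP-TEAD targets was 5 and ranged from 4 to 5. With the replicate block, in which the mice share only a number, these were 4 and 4. Among other named genes, Crim1 was called under none of these settings, Junb and Colec11 were not called by limma voom, Lyve1 was not called by DESeq2 or with the replicate block, and Fos was not among the genes tested with counts halved or with at least 10 counts in every library. The values of Ccn2 rest on 41.8 to 130 normalized counts per mouse, and Ankrd1 had too few counts to pass the filter. It had no leave-one-out or other value than the one without a filter.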
